A study of Homo sapiens with 16 samples.

Results

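The 51 genes described here encode proteins of DNA damage signalling and repair, and were taken by symbol from a count table of 58243 genes measured in U-251 MG cells, a long-cultured line derived from a human glioblastoma. They were set apart by role into checkpoint signalling (6 genes), break-marking chromatin factors (5), homologous recombination (19, of which 5 act in end resection, 11 in strand exchange and 3 are RecQ helicases), the Fanconi anaemia pathway (6), structure-selective nucleases (4), end joining (6), single-strand break repair (4) and mismatch repair (1). Cells were exposed for 48 h, starting 24 h after they were seeded, to the combination of irinotecan at 0.6 µM and simvastatin at 0.06 µM, to irinotecan at 0.6 µM alone, to simvastatin at 0.06 µM alone, or to DMSO, the solvent control. Each of the 4 treatments had 4 libraries of poly(A) RNA, 16 in all. All of them came from 1 cell line at 1 time point, and no label states that libraries with the same treatment came from separate cultures, so p-values measure the spread between these libraries, which may be technical.

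Irinotecan is a prodrug whose active form traps topoisomerase I on DNA, and replication forks that run into a trapped complex can break. A break or a stalled fork is sensed by the kinases ATM and ATR, which act through CHEK2 and CHEK1, mark the surrounding chromatin and recruit repair. Ends are then either resected and repaired by recombination, often with the Fanconi anaemia proteins at stalled forks, or rejoined directly, while single-strand breaks are closed by the PARP1, XRCC1 and LIG3 pathway. Simvastatin inhibits HMG-CoA reductase, the rate-limiting enzyme of cholesterol synthesis. The study asked what each drug and their combination do in this line, and the comparisons below ask it of the damage response genes at the level of mRNA. Most of the kinases and adaptors named here are regulated as proteins, which RNA does not measure.

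Library totals ran from 24159673 to 32318888 counts. The scaling factors by the trimmed mean of M-values (TMM), which correct for differences in RNA composition, were 0.971 to 1.033. Of the 9 astroglial markers checked, all were expressed in DMSO libraries, among them GFAP at 203 CPM and SOX2 at 384 CPM (CPM, counts scaled to a common library size). EPCAM, PECAM1 and PTPRC averaged under 0.06 CPM in DMSO libraries, and CD3E and HBB had no count in any library. Others on the epithelial, endothelial and blood lists were higher, with KRT8 at 255, KRT18 at 170, KDR at 3.59, VWF at 0.502 and CD14 at 0.442 CPM. Of the neuronal markers, GAD1 averaged 56.5 and SYT1 14.3 CPM, above the astroglial S100B at 4.74 CPM. SNAP25 (1.82), RBFOX3 (0.871) and SLC17A7 (0.186) lay below it. With irinotecan, 8 of the 9 astroglial markers fell against DMSO, GFAP by 1.10 on the log2 scale, and 8 fell in the combination against simvastatin. The 2 epithelial and 2 endothelial markers that could be tested, KRT8, KRT18, KDR and VWF, were higher in both of these comparisons, and of 5 neuronal markers 2 and 1 were higher. Together the 4 epithelial markers had 493 to 562 CPM with the combination, 557 to 617 with irinotecan, 363 to 395 with simvastatin and 402 to 457 with DMSO, while CDH1 averaged 0.167 CPM in DMSO libraries. The part of these changes in the results for the members was not tested. In such bulk RNA, a change in how many cells express a gene cannot be told apart from a change per cell.

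Before any drug effect, the members spanned a wide range of mRNA levels. Per kilobase of exon in DMSO libraries, XRCC6 had 177 CPM, and XRCC5, its partner in the Ku heterodimer that caps broken ends, had 140 CPM. H2AFX, the histone variant phosphorylated around breaks, also had 140 CPM per kilobase, PARP1 had 46.8 and PRKDC, the kinase recruited by Ku, had 41.2. These levels stood above those of 99.2%, 98.8%, 98.8%, 94.9% and 94.1% of the genes tested. The median over the 50 members with enough counts to be tested was 8.21 CPM per kilobase, against 3.58 over 16609 tested genes with a length. At the low end were RAD54B with 0.688 and RAD50 with 0.382 CPM per kilobase, although RAD50 and its partners MRE11 (4.55) and NBN (11.9) work as 1 complex. RAD50 shares 79.7% of its exon bases with the readthrough gene AC116366.3 on the same strand, and RAD54B shares 59.1% with FSBP, so reads may have been split or dropped there and these levels are uncertain. ATRIP, the partner of ATR, was the 1 member that could not be tested. It had 0 to 0.252 CPM and at most 7 counts in a library, and shares 27.9% of its exon bases with TREX1 on the same strand.

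**Figure D1:**
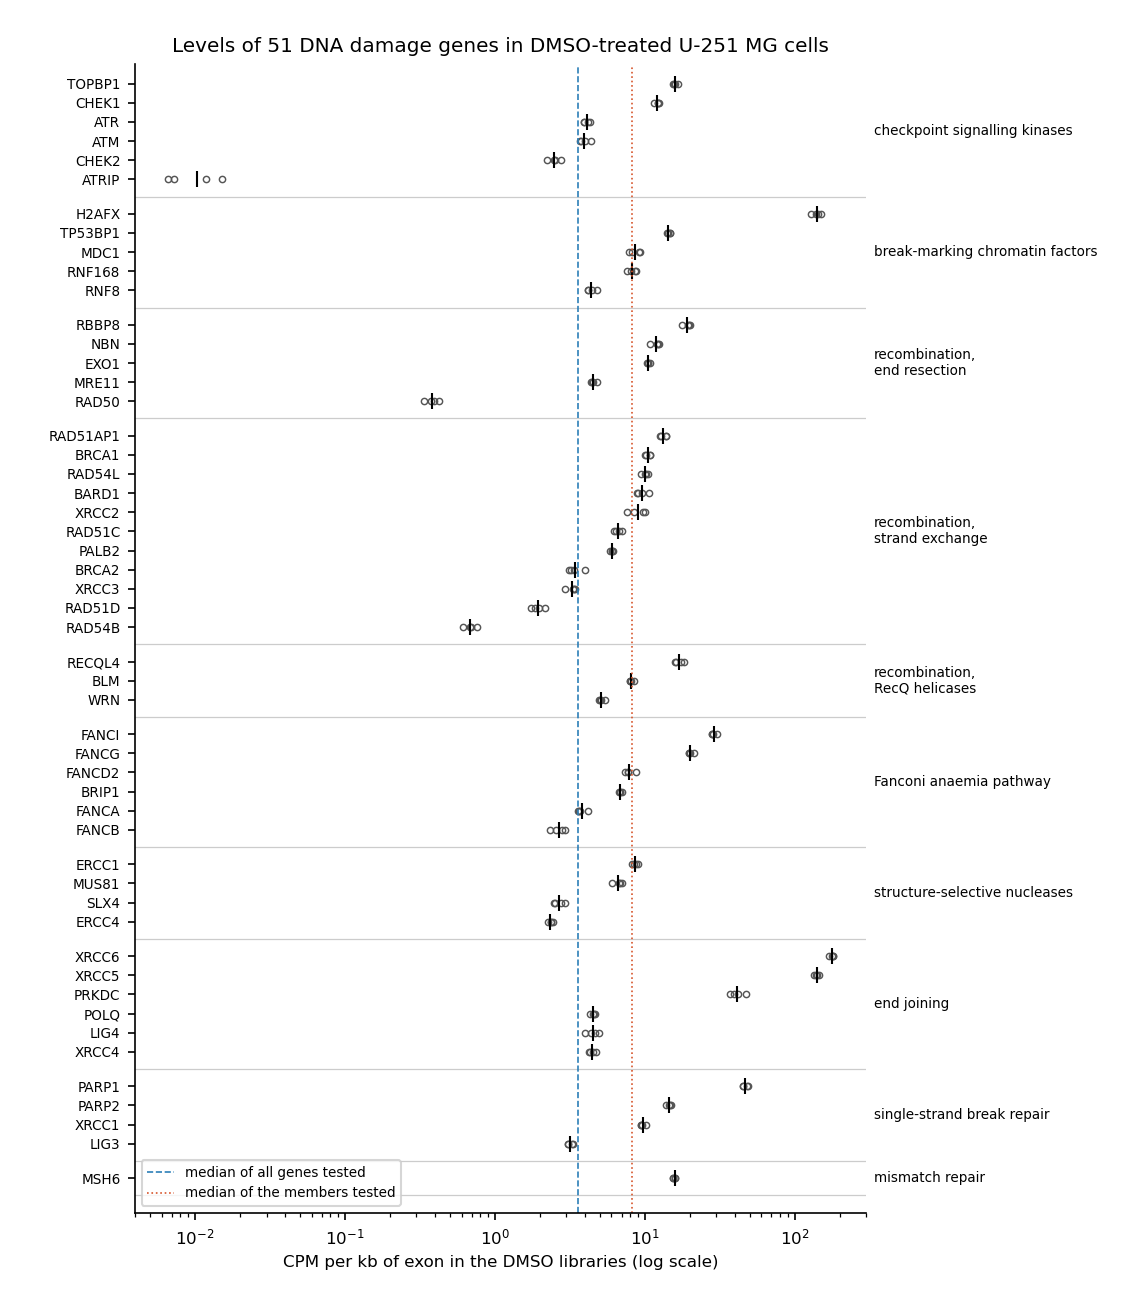
Level of each of the 51 members in DMSO libraries, in CPM per kilobase of exon on a log axis. Open circles are the 4 libraries, the bar is their mean, and the dashed and dotted lines are the medians of all genes tested (3.58) and of the members tested (8.21). XRCC6, XRCC5 and H2AFX stand at 140 or above, and ATRIP stands below every other member.

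Irinotecan moved damage response genes in both directions. Of the 50 members tested, 13 rose and 7 fell in irinotecan libraries against DMSO libraries, at an adjusted p under 0.05 by edgeR's quasi-likelihood test with Benjamini-Hochberg adjustment over all 16647 genes tested. Over all genes, 12.4% were called higher and 11.7% lower in that comparison. In the combination against simvastatin, where irinotecan is again the drug that differs, 13 members rose and 6 fell, against 13.9% and 11.7% of all genes. The members' median log2 fold change was 0.06 and 0.07, and that of all genes was -0.00 in both comparisons. Changes were small in size. Among called members the median absolute log2 fold change was 0.26 between irinotecan and DMSO and 0.29 between combination and simvastatin, and none exceeded 0.48. With library totals alone as the scale, 22 members were called higher and 4 lower between irinotecan and DMSO, and 20 higher and 4 lower between combination and simvastatin; that scale moves the median of all genes by 0.07 and 0.05. On it, 22.8% of all genes were called higher and 6.48% lower between irinotecan and DMSO, and 21.2% and 7.68% between combination and simvastatin.

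The calls fell unevenly over the roles. In both comparisons 6 of 19 homologous recombination genes rose and none fell. Of the 6 Fanconi genes, 5 rose with irinotecan against DMSO, and 4 rose and 1 fell in the combination against simvastatin. None of the 4 structure-selective nucleases rose, while 2 fell against DMSO and 1 against simvastatin. The 6 end joining genes split into 1 that rose and 2 that fell in either comparison. Of the 4 single-strand break repair genes 1 fell in either comparison, and of the 5 break-marking factors 1 fell against DMSO and none changed in the combination against simvastatin. These are counts beside the shares of all genes given above, and no difference between roles was tested.

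**Figure D2:**
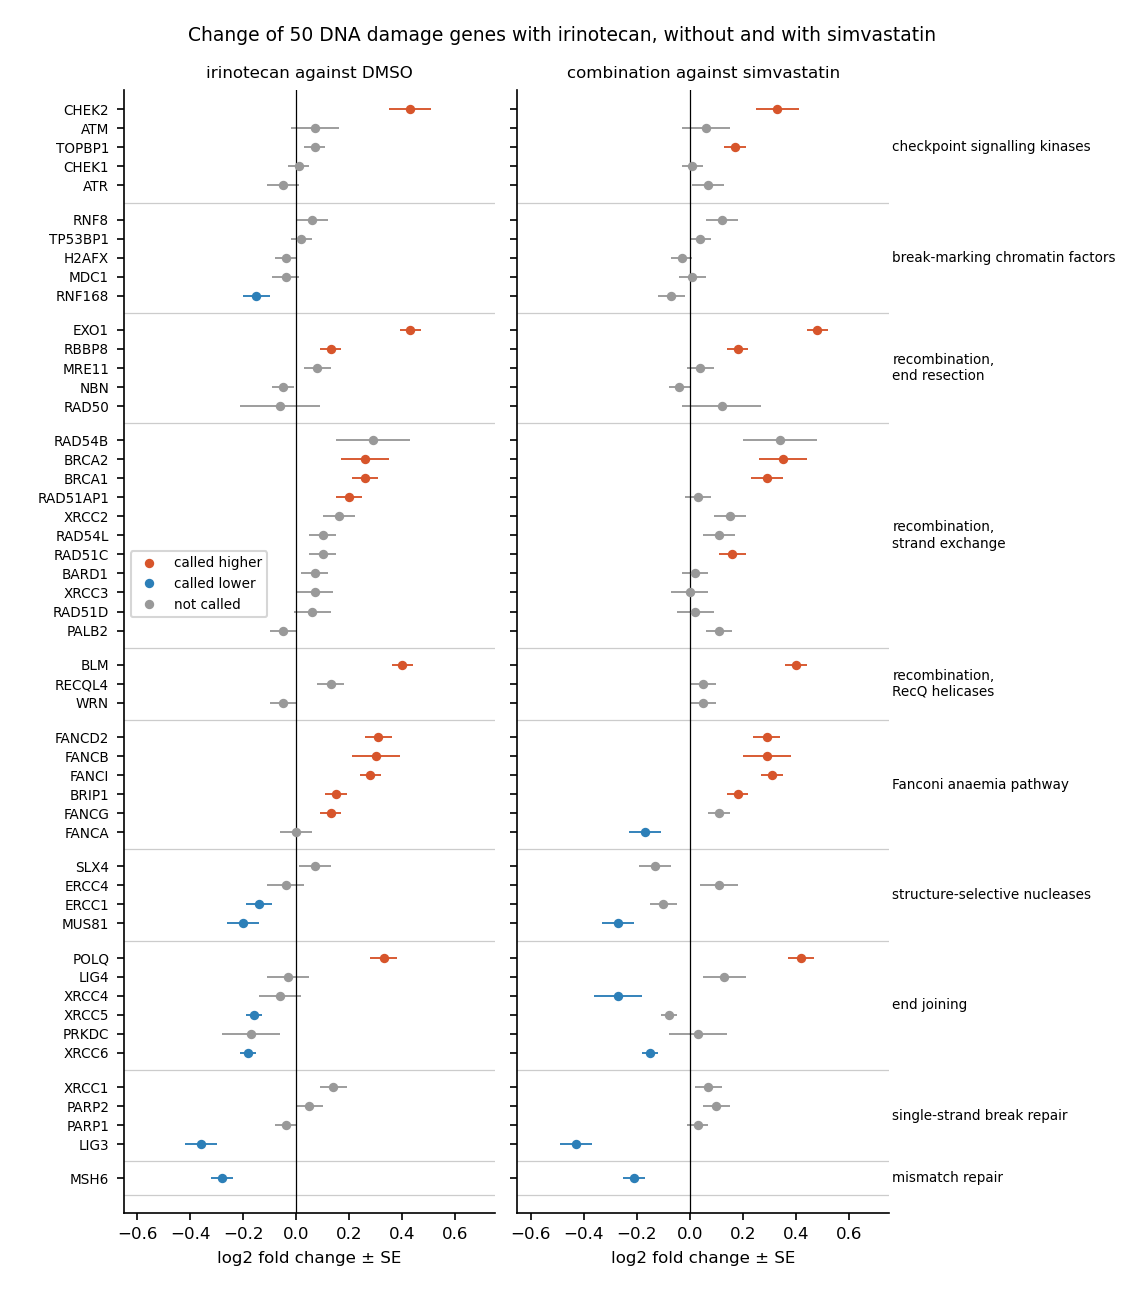
Log2 fold change with its standard error for the 50 members tested, grouped by role, in irinotecan against DMSO (left) and in the combination against simvastatin (right). Orange points passed the test as higher, blue points as lower, and grey points did not pass it. Recombination and Fanconi genes make up most of the orange points, and LIG3 lies farthest to the left in both panels.

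Short stretches around the start sites are shown for the members that changed in both comparisons and carry an E2F word there, because E2F factors are the classical regulators of replication and recombination genes in the cell cycle. Promoter windows came from RefSeq on GRCh38.p14 and run from 250 bases before to 50 bases after the annotated start. At least 1 was listed for 44 of the 51 members. Where several were listed, as for BRCA1 (2), EXO1 (2), RBBP8 (2), MSH6 (4) and LIG4 (5), 1 was searched. The BRCA1 window searched, chr17:43170278-43170577, lies outside the GENCODE span of that gene. The words searched on both strands were TTTCCCGC, TTTGGCGC, TTTCGCGC, TTTGGCGG, TTCCCGCC and TTGGCGGG, some of which overlap one another. Capitals mark the word or its reverse complement, and each line reads along the gene's strand from 5′ to 3′.
EXO1: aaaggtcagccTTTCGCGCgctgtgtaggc
BLM: ggcaagcttccGGCGGGAAgtgagccaggg
FANCD2: gcgtcgggcctGGCGGGAAAgtcgaaaact
BRIP1: agggggcgggaGGCGGGAAttcgtctcggg
POLQ: gtttgaagactGGCGGGAAgatgtccgcag
MSH6: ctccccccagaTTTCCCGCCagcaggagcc
XRCC6: tgtccaagttggtcgcttccctGCGCCAAA

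On GRCh38.p14 these stretches lie at chr1:241848197-241848226 on the plus strand (EXO1), chr15:90717337-90717366, plus (BLM), chr3:10026423-10026452, plus (FANCD2), chr17:61863509-61863538, minus (BRIP1), chr3:121545957-121545986, minus (POLQ), chr2:47783137-47783166, plus (MSH6) and chr22:41621315-41621344, plus (XRCC6). In EXO1, BLM, FANCD2, BRIP1, POLQ and MSH6 the word lies within 30 bases of the start. At least 1 word was found in 14 of the 44 members (31.8%) and in 6.52% of the 27305 genes of the table, which include noncoding genes. Within 30 bases on either side of the start, 11 members (25%) and 1.26% of all genes had one. In the windows searched, a word was present in 5 of the 10 members that rose in both comparisons and in 2 of the 4 that fell, so it was found on both sides of the change. With the 250 bases before the start alone, 6 members had a word (13.6%, against 5.65% of all genes).

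BLM and BRIP1 also had a second word farther upstream, in the 250 bases before the start, at chr15:90717096-90717345 on the plus strand and chr17:61863529-61863778 on the minus strand. The full upstream stretches are given since, of the members that changed in both comparisons, these 2 hold a word there.
BLM: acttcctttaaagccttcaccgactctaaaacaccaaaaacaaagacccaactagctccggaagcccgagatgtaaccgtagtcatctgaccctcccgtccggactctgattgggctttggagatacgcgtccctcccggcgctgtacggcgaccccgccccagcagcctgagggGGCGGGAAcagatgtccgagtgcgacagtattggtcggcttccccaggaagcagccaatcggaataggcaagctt
BRIP1: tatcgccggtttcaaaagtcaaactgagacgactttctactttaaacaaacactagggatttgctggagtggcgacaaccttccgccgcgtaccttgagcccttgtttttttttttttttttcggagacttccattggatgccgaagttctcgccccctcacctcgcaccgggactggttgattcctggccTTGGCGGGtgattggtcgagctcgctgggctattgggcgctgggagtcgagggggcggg
The CHR words TTTGAA and TTCGAA were in 7 of the 44 members (15.9%, against 16.6% of all genes) and CCAAT was in 21 (47.7%, against 35.7%), also on both strands. A match is a run of letters in this window, not a bound site.

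Among the checkpoint genes CHEK2 was the only one called in both irinotecan comparisons. CHEK2 (ENSG00000183765, chr22:28687743-28742422, minus strand) encodes the effector kinase downstream of ATM. It had 16.1, 14.7, 13.1 and 12.5 CPM in combination libraries and 16, 15.5, 14.5 and 14.7 CPM in irinotecan libraries, against 11.7, 12.3, 10.4 and 10.5 CPM in simvastatin libraries and 12.5, 11.2, 9.95 and 11.3 CPM in DMSO libraries. The irinotecan libraries were all above the DMSO libraries and the combination libraries all above the simvastatin libraries. The log2 fold change was 0.43 ± 0.08 against DMSO (edgeR adjusted p = 0.00021) and 0.33 ± 0.08 for the combination against simvastatin (edgeR adjusted p = 0.00412), where ± is the standard error. Annotated genes include 4 pseudogenes named after CHEK2, whose reads may not be separable.

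The other signalling kinases stayed within the spread of their libraries. ATM (ENSG00000149311, chr11:108222484-108369102) had 102, 117, 113 and 96.1 CPM with the combination, 95.1, 85.4, 107 and 110 with irinotecan, 99.5, 95.7, 115 and 99.6 with simvastatin and 90.2, 96.4, 105 and 88.5 with DMSO. ATR (ENSG00000175054, chr3:142449235-142578826) had 47.8, 50, 52.2 and 46 CPM with the combination, 44.8, 47.7, 53.6 and 51.7 with irinotecan, 46.7, 41.8, 52.5 and 45 with simvastatin and 49.2, 49.1, 53.8 and 52.3 with DMSO. For both genes the 4 treatments overlapped, and neither passed the test in any comparison of the main fit. CHEK1 (ENSG00000149554, chr11:125625136-125676255), the effector kinase of ATR, had 82, 83.2, 83.5 and 78.9 CPM with the combination, 79.3, 82.4, 79.5 and 80.2 with irinotecan, 78.6, 82.8, 81.9 and 82.5 with simvastatin and 81, 75.2, 80.9 and 81.1 with DMSO. Its 95% interval was -0.06 to 0.09 on the log2 scale for irinotecan against DMSO, and -0.07 to 0.08 for the combination against simvastatin. The interval for ATM was wider, -0.11 to 0.24 in either comparison, and for ATR it was -0.17 to 0.07 and -0.05 to 0.20. TOPBP1, which activates ATR and is not itself a kinase, averaged 131 ± 3.45 CPM with the combination and 116 ± 5.4 with simvastatin (SD, n = 4 each), a log2 fold change of 0.17 ± 0.04 (edgeR adjusted p = 0.00167), while irinotecan alone gave 0.07 ± 0.04 (edgeR adjusted p = 0.217).

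The break-marking factors changed little with irinotecan. H2AFX (ENSG00000188486, chr11:119093854-119095467) had 213, 192, 199 and 194 CPM with the combination, 232, 219, 213 and 211 with irinotecan, 212, 202, 191 and 207 with simvastatin and 240, 206, 224 and 232 with DMSO. Irinotecan and DMSO libraries overlapped, as did combination and simvastatin libraries, and the log2 fold changes of -0.04 and -0.03 did not pass the test. MDC1, the adaptor that binds phosphorylated H2AX, had values of -0.04 and 0.01, TP53BP1, which restrains resection, had 0.02 and 0.04, and the ubiquitin ligase RNF8 had 0.06 and 0.12, none of which passed. TP53BP1 shares 28.7% of its exon bases with TUBGCP4 on the opposite strand, which had -0.14 ± 0.04 and -0.03 ± 0.04, so its counts are uncertain if strand was not used. RNF168, the ligase that acts after RNF8, averaged 39.9 ± 1.4 CPM with irinotecan and 44.3 ± 2.63 CPM with DMSO (SD, n = 4 each), a fall of log2 fold change -0.15 ± 0.05 (edgeR adjusted p = 0.0333) that was not called with library totals alone as the scale, without the filter on low counts, or without any 1 of DMSO replicates 1 and 3 and irinotecan replicates 1 and 2.

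End resection was led by EXO1, an exonuclease that extends resected ends, which had the highest log2 fold change of all members in both comparisons. EXO1 (ENSG00000174371, chr1:241847967-241895148) had 58, 57.4, 58.4 and 59.2 CPM with the combination and 58.9, 57.1, 59.8 and 59.2 CPM with irinotecan, against 40.8, 41.6, 41.9 and 42.6 CPM with simvastatin and 43, 43.2, 43.4 and 44.8 CPM with DMSO. The 8 libraries that had received irinotecan all lay above the 8 that had not. The fold was 1.35 for irinotecan against DMSO (log2 fold change 0.43 ± 0.04, edgeR adjusted p = 1.14e-09) and 1.4 for the combination against simvastatin (0.48 ± 0.04, edgeR adjusted p = 1.54e-10). RBBP8, also known as CtIP, starts resection with the MRE11 nuclease. RBBP8 (ENSG00000101773, chr18:22798261-23026488) had 104, 104, 110 and 110 CPM with the combination and 106, 109, 106 and 108 CPM with irinotecan, against 92.7, 90.9, 97.8 and 95.3 CPM with simvastatin and 89.6, 98.4, 102 and 100 CPM with DMSO. Irinotecan libraries lay above DMSO libraries and combination above simvastatin libraries, by 0.13 ± 0.04 (edgeR adjusted p = 0.0153, 0.0987 without DMSO replicate 1) and 0.18 ± 0.04 (edgeR adjusted p = 0.00134) on the log2 scale. The complex of MRE11, RAD50 and NBN, which tethers ends and opens resection, did not pass in either comparison: MRE11 had log2 fold changes of 0.08 and 0.04, RAD50 -0.06 and 0.12, and NBN -0.05 and -0.04.

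Of the strand exchange genes, 10 of 11 had log2 fold changes above 0 in either comparison and 3 of 11 were called higher in each. Over all genes, 8316 and 8164 of 16647 were above 0, and 12.4% and 13.9% were called higher. BRCA1, which with BARD1 forms a ubiquitin ligase that promotes resection and recombination, is at chr17:43044295-43170245 (ENSG00000012048). BRCA1 had 105, 115, 113 and 104 CPM with the combination and 105, 112, 122 and 121 CPM with irinotecan, against 86.3, 89.3, 101 and 82.7 CPM with simvastatin and 100, 92.1, 99.9 and 93.5 CPM with DMSO. Neither pair of groups overlapped, and the log2 fold changes were 0.26 ± 0.05 (edgeR adjusted p = 0.00085) and 0.29 ± 0.06 (edgeR adjusted p = 0.000335). BRCA2 (ENSG00000139618, chr13:32315474-32400266), which loads the recombinase on resected ends, had 46.2, 54.7, 51.6 and 46.1 CPM with the combination and 49, 43.3, 54.4 and 55.3 CPM with irinotecan, against 38, 35.4, 42.6 and 40.2 CPM with simvastatin and 39.9, 41.5, 48.8 and 38.7 CPM with DMSO. Combination and simvastatin libraries did not overlap (0.35 ± 0.09, edgeR adjusted p = 0.00671). Irinotecan and DMSO libraries did overlap, since DMSO replicate 3 lay above irinotecan replicate 2, and that call (0.26 ± 0.09, edgeR adjusted p = 0.0365) was lost without any 1 of DMSO replicates 1, 2 and 4 and irinotecan replicates 1, 3 and 4, with an adjusted p of up to 0.121.

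BARD1, the partner of BRCA1, did not move with it in the test, at 0.07 ± 0.05 and 0.02 ± 0.05, and neither did PALB2, which bridges BRCA1 and BRCA2, at -0.05 ± 0.05 and 0.11 ± 0.05. The recombinase paralog RAD51C rose in the combination against simvastatin (42.3 ± 1.51 against 37.7 ± 1.54 CPM, SD, n = 4 each, log2 fold change 0.16 ± 0.05, edgeR adjusted p = 0.0139, and lost without simvastatin replicate 3 or combination replicate 1, where it was 0.066), and had 0.10 ± 0.05 for irinotecan against DMSO (edgeR adjusted p = 0.129). The paralogs RAD51D (0.06 and 0.02), XRCC2 (0.16 and 0.15) and XRCC3 (0.07 and -0.00) did not pass in either comparison. XRCC3 shares 76.7% of its exon bases with KLC1 on the opposite strand, so its counts are uncertain if strand was not used. The DNA translocases RAD54L (0.10 and 0.11) and RAD54B (0.29 ± 0.14 and 0.34 ± 0.14) did not pass either, and RAD54B was measured at only 3.4 to 4.47 CPM per treatment. RAD54L shares 25.1% of its exon bases with LRRC41 on the opposite strand, which fell in both comparisons (-0.12 ± 0.04 and -0.11 ± 0.04). Whether reads of LRRC41 enter the RAD54L count was not tested.

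Of the RecQ helicases only BLM, which dissolves recombination intermediates, was called. BLM (ENSG00000197299, chr15:90717327-90816165) had 69.4, 62.9, 71 and 65.7 CPM with the combination and 69.2, 71.9, 71.2 and 73.9 CPM with irinotecan, against 50.4, 50.1, 53 and 50.4 CPM with simvastatin and 52.8, 53.3, 56.8 and 54.4 CPM with DMSO. As for EXO1, no library with irinotecan fell to the level of one without it. The log2 fold change was 0.40 ± 0.04 in both comparisons, with edgeR adjusted p-values of 2.81e-08 against DMSO and 3.39e-08 for the combination against simvastatin. WRN had -0.05 and 0.05 and RECQL4 0.13 and 0.05, none of which passed.

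In the Fanconi pathway the FANCI and FANCD2 pair, whose ubiquitination is the pathway's central step, rose together. FANCI (ENSG00000140525, chr15:89243949-89317261) had 252, 255, 250 and 253 CPM with the combination and 262, 267, 273 and 280 CPM with irinotecan, against 199, 200, 217 and 198 CPM with simvastatin and 218, 236, 218 and 222 CPM with DMSO. FANCD2 (ENSG00000144554, chr3:10026414-10101930) had 76.1, 76.9, 71.8 and 73.3 CPM with the combination and 77.5, 85.1, 79.8 and 84.9 CPM with irinotecan, against 60.7, 62.7, 63.7 and 57 CPM with simvastatin and 64.5, 72.8, 64.4 and 62.1 CPM with DMSO. In both genes irinotecan libraries stood above DMSO libraries and combination libraries above simvastatin libraries, without overlap. The log2 fold changes of FANCI were 0.28 ± 0.04 (edgeR adjusted p = 7.42e-07) and 0.31 ± 0.04 (edgeR adjusted p = 1.1e-07), and those of FANCD2 were 0.31 ± 0.05 (edgeR adjusted p = 9.13e-06) and 0.29 ± 0.05 (edgeR adjusted p = 3.97e-05). FANCD2 and RBBP8 have 1 pseudogene each in the annotation.

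BRIP1, a helicase that binds BRCA1, is at chr17:61681266-61863521 (ENSG00000136492). It had 57.2, 56.3, 57.5 and 57.9 CPM with the combination and 61, 57.8, 63.1 and 61.6 CPM with irinotecan, against 51.8, 48.9, 53 and 48.1 CPM with simvastatin and 55, 56.4, 54.4 and 54.2 CPM with DMSO. Both pairs of groups were apart, by 0.18 ± 0.04 for the combination against simvastatin (edgeR adjusted p = 0.00201) and 0.15 ± 0.04 for irinotecan against DMSO (edgeR adjusted p = 0.0109, 0.0547 without irinotecan replicate 3). The core complex genes did not move alike. FANCB rose in both comparisons (0.29 ± 0.09 for the combination against simvastatin and 0.30 ± 0.09 for irinotecan against DMSO), at 9.55 to 12.1 CPM per treatment. The call against DMSO was lost without DMSO replicate 1 (edgeR adjusted p = 0.0604), and that against simvastatin without simvastatin replicate 2 or 4 or combination replicate 3, with an adjusted p of up to 0.0694. FANCG rose with irinotecan against DMSO (0.13 ± 0.04, edgeR adjusted p = 0.024) and had 0.11 ± 0.04 in the combination against simvastatin (edgeR adjusted p = 0.0607). Its call was lost without any 1 of DMSO replicates 2, 3 and 4 and irinotecan replicates 1 and 2, with an adjusted p of up to 0.0804. FANCA had -0.00 ± 0.06 with irinotecan against DMSO and fell in the combination against simvastatin (-0.17 ± 0.06, edgeR adjusted p = 0.0338), a call held in 17 of 23 settings and lost without any 1 of simvastatin replicates 1 and 2 and combination replicates 1, 3 and 4 (adjusted p up to 0.168). FANCA shares 23.6% of its exon bases with ZNF276 on the opposite strand, which had -0.39 ± 0.11 in both comparisons, and whether reads of ZNF276 enter the FANCA count was not tested.

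The 4 members set under structure-selective nucleases, which cut branched recombination and crosslink intermediates, fell or did not pass. This does not hold for such genes outside the set. The Holliday junction resolvase GEN1 rose in both comparisons (0.26 ± 0.06 and 0.21 ± 0.06). The MUS81 partner EME1 rose with irinotecan against DMSO (0.35 ± 0.08) and did not pass in the combination against simvastatin (0.16 ± 0.08). MUS81 averaged 30.2 ± 1.57 CPM with the combination and 36.3 ± 2.81 CPM with simvastatin (SD, n = 4 each), with no overlap and a log2 fold change of -0.27 ± 0.06 (edgeR adjusted p = 0.00201). With irinotecan it averaged 31.8 ± 2.57 CPM and with DMSO 36.5 ± 2.25 CPM (SD, n = 4 each), with some overlap (-0.20 ± 0.06, edgeR adjusted p = 0.0178, and 0.144 with library totals alone as the scale; the call was also lost without DMSO replicate 1 or irinotecan replicate 4). MUS81 shares 13.9% of its exon bases with CFL1 on the opposite strand, which had -0.13 ± 0.04 against DMSO and -0.09 ± 0.04 in the combination against simvastatin. ERCC1, the partner of the ERCC4 nuclease, fell with irinotecan against DMSO (-0.14 ± 0.05, edgeR adjusted p = 0.043), a call held in 14 of 23 settings and lost without DMSO replicate 1 or 4, simvastatin replicate 1 or irinotecan replicate 3 or 4 (adjusted p up to 0.368, with library totals alone), while ERCC4 itself had -0.04 ± 0.07. ERCC1 shares 28.6% of its exon bases with CD3EAP on the opposite strand (0.09 ± 0.12 and 0.19 ± 0.12 in the irinotecan comparisons). ERCC4 shares 25.7% with AC010401.1, also on the opposite strand, so both counts are uncertain if strand was not used. The scaffold SLX4 had 0.07 ± 0.06 with irinotecan against DMSO and -0.13 ± 0.06 in the combination against simvastatin, neither of which passed.

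**Figure D3:**
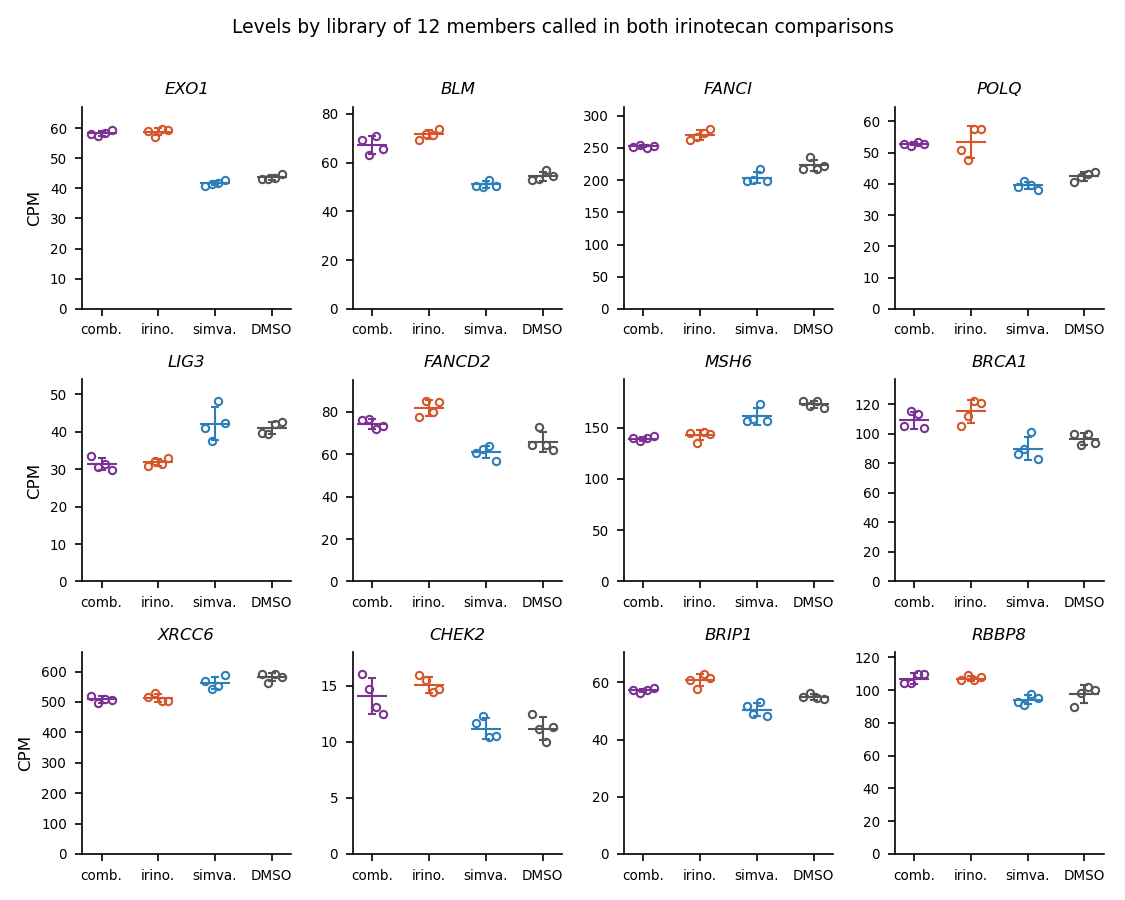
Level in CPM in each of the 16 libraries for the 12 members with the smallest p-values among those called in both irinotecan comparisons. Circles are libraries and bars are the mean and SD (n = 4), with combination, irinotecan, simvastatin and DMSO from left to right and each axis starting at 0. In EXO1, BLM and FANCI all combination and irinotecan libraries stand above all others, and in LIG3, MSH6 and XRCC6 they stand below.

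Among the end joining genes POLQ, the polymerase of the error-prone route that joins ends at short homologies, rose in both irinotecan comparisons. Of the Ku genes of the classical route, XRCC6 fell in both and XRCC5 fell in irinotecan against DMSO, while PRKDC and LIG4 of the same route passed in neither. POLQ (ENSG00000051341, chr3:121431427-121546641) had 52.8, 52.1, 53.3 and 52.9 CPM with the combination and 50.8, 47.6, 57.6 and 57.7 CPM with irinotecan, against 39.1, 41.1, 39.7 and 38.1 CPM with simvastatin and 40.5, 42.3, 43.1 and 43.7 CPM with DMSO. All 8 libraries with irinotecan were above all 8 without it, and irinotecan replicates 1 and 2 were lower than replicates 3 and 4. The log2 fold change was 0.33 ± 0.05 against DMSO (edgeR adjusted p = 1.18e-05) and 0.42 ± 0.05 for the combination against simvastatin (edgeR adjusted p = 3.84e-07).

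XRCC6 (ENSG00000196419, chr22:41621119-41664048) had 521, 496, 508 and 506 CPM with the combination and 517, 530, 503 and 503 CPM with irinotecan, against 569, 542, 552 and 587 CPM with simvastatin and 591, 561, 593 and 582 CPM with DMSO. The libraries with irinotecan were all lower, by 0.18 on the log2 scale against DMSO (-0.18 ± 0.03, edgeR adjusted p = 0.000122) and -0.15 ± 0.03 for the combination against simvastatin (edgeR adjusted p = 0.00125). Its annotation lists 5 pseudogenes named after it. XRCC5 averaged 684 ± 9.11 CPM with irinotecan and 765 ± 24 CPM with DMSO (SD, n = 4 each; -0.16 ± 0.03, edgeR adjusted p = 0.000376), and 687 ± 13.4 CPM with the combination and 727 ± 22.5 CPM with simvastatin (-0.08 ± 0.03, edgeR adjusted p = 0.0668). PRKDC (ENSG00000253729, chr8:47773108-47960183) had 569, 648, 632 and 552 CPM with the combination, 537, 471, 640 and 613 with irinotecan, 537, 524, 678 and 608 with simvastatin and 641, 568, 728 and 602 with DMSO. Its libraries overlapped in every comparison, with 95% intervals of -0.39 to 0.05 and -0.19 to 0.26, so a change as large as that of XRCC6 was not detectable in it. XRCC4, the partner of LIG4 in the ligation step, fell in the combination against simvastatin (10.4 ± 1.29 and 12.6 ± 0.755 CPM, SD, n = 4 each; -0.27 ± 0.09, edgeR adjusted p = 0.0199) and had -0.06 ± 0.08 with irinotecan against DMSO. That call was lost in 6 of 23 settings, among them without simvastatin replicate 1 or 4, without combination replicate 1 or 4 and with library totals alone as the scale. LIG4 had 0.13 ± 0.08 in the combination against simvastatin and -0.03 ± 0.08 with irinotecan against DMSO.

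Among the single-strand break repair genes LIG3, the ligase that seals the nick, had the lowest log2 fold change of all members in both comparisons. LIG3 (ENSG00000005156, chr17:34980494-35009743) had 33.4, 30.7, 31.5 and 29.8 CPM with the combination and 30.8, 32.1, 31.5 and 33 CPM with irinotecan, against 41, 37.5, 48.2 and 42.3 CPM with simvastatin and 39.8, 39.4, 42 and 42.6 CPM with DMSO. No library with irinotecan reached the level of one without it. The log2 fold change was -0.36 ± 0.06 against DMSO (edgeR adjusted p = 1.77e-05) and -0.43 ± 0.06 for the combination against simvastatin (edgeR adjusted p = 1.62e-06). LIG3 shares 29.1% of its exon bases with RFFL on the opposite strand, and RFFL had -0.35 ± 0.05 and -0.38 ± 0.05 in the same comparisons. The strand setting of the counts is not given in the sources used here, so the change of LIG3 and that of RFFL cannot be told apart.

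PARP1 (ENSG00000143799, chr1:226360691-226408079), the main sensor of single-strand breaks, had 332, 320, 327 and 328 CPM with the combination, 320, 331, 332 and 324 with irinotecan, 306, 310, 340 and 321 with simvastatin and 348, 325, 344 and 326 with DMSO. Its libraries overlapped in every comparison, and its 95% intervals were -0.11 to 0.03 for irinotecan against DMSO and -0.04 to 0.10 for the combination against simvastatin. PARP2 had 0.05 ± 0.05 and 0.10 ± 0.05, and the scaffold XRCC1 had 0.14 ± 0.05 and 0.07 ± 0.05, none of which passed. XRCC1 shares 24% of its exon bases with other annotated genes, so its counts are less certain.

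MSH6, the 1 mismatch repair gene of the set, pairs with another protein to recognise mismatches. MSH6 (ENSG00000116062, chr2:47695530-47810101) had 140, 137, 140 and 142 CPM with the combination and 145, 135, 146 and 144 CPM with irinotecan, against 157, 159, 173 and 157 CPM with simvastatin and 176, 171, 176 and 169 CPM with DMSO. Libraries with irinotecan were all lower, with log2 fold changes of -0.28 ± 0.04 against DMSO (edgeR adjusted p = 8.73e-07) and -0.21 ± 0.04 for the combination against simvastatin (edgeR adjusted p = 7.69e-05). It shares 16.2% of its exon bases with FBXO11 on the opposite strand, which did not pass (-0.08 ± 0.05 and -0.03 ± 0.05).

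The irinotecan comparisons share no library, so they can be set against each other. They are not fully separate, since both come from the same fit to all 16 libraries. Libraries with the same number may also be related across treatments, as the closing section describes. Of the 20 members called in irinotecan against DMSO and the 19 called in the combination against simvastatin, 15 were the same genes with the same sign, which is 75% and 78.9% of the lists. Over all genes the shared calls were 68.4% and 64.5% of the lists. Called higher in both were EXO1, BLM, FANCI, POLQ, FANCD2, BRCA1, CHEK2, BRIP1, RBBP8, FANCB and BRCA2, 11 genes where 9.09% of all genes were higher in both. Called lower in both were LIG3, MSH6, XRCC6 and MUS81, 4 genes where 7.41% of all genes were. All 20 and all 19 had the same sign in the other comparison. Across the 50 members Pearson's r of the log2 fold changes was 0.87 and Spearman's rho 0.79, and across 16647 genes they were 0.64 and 0.63. Genes are not independent replicates, and no p is given. The members' median level was also higher than that of tested genes (8.21 against 3.58 CPM per kilobase), and its part in the higher r was not tested. The sign was the same in 39 of 50 members (78%) and in 76.3% of all genes.

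**Figure D4:**
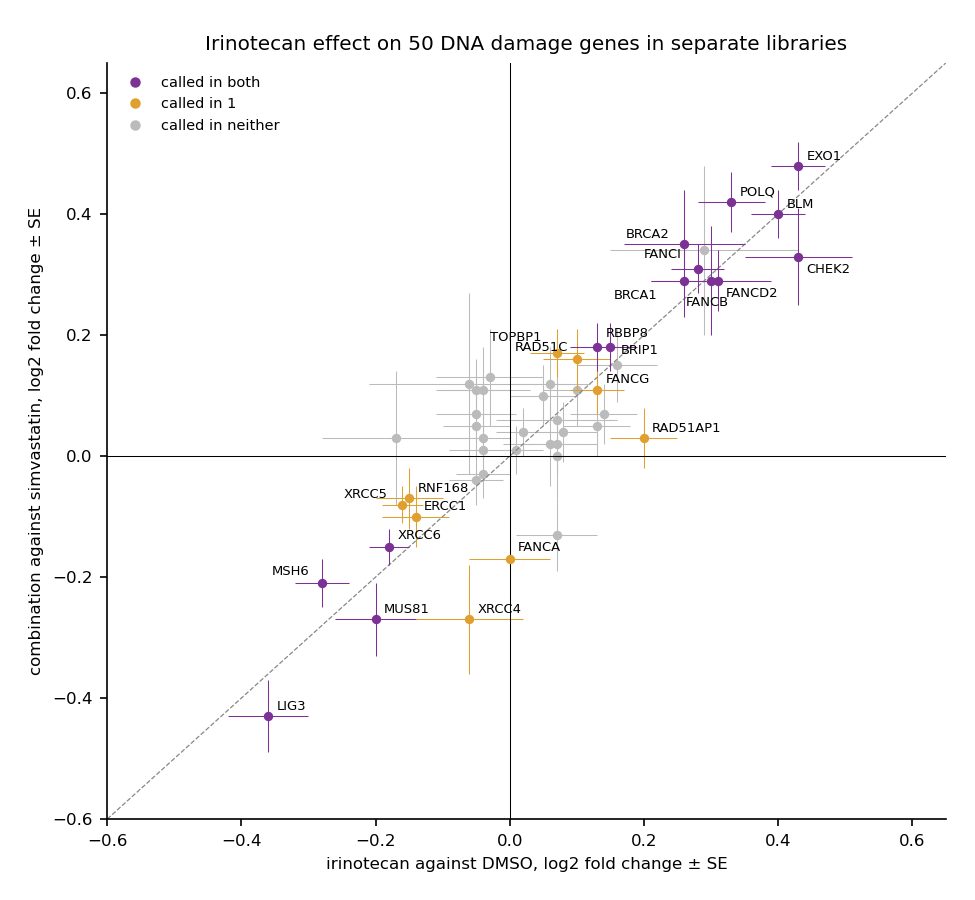
Log2 fold change with standard errors of 50 members for irinotecan against DMSO (horizontal axis) and for the combination against simvastatin (vertical axis), which share no library. Purple points were called in both (15), yellow points in 1 and grey points in neither, and the dashed line marks equal values. The purple points lie close to the line, from LIG3 at the lower left to EXO1 at the upper right.

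Simvastatin at this dose moved few members. Against DMSO none rose and 3 fell (3.89% of all genes were called higher and 2.11% lower), namely H2AFX, MDC1 and FANCI. H2AFX averaged 203 ± 9.15 CPM with simvastatin and 226 ± 14.4 CPM with DMSO (SD, n = 4 each; -0.15 ± 0.04, edgeR adjusted p = 0.0367), with overlapping libraries. MDC1 (ENSG00000137337, chr6:30699807-30717889) had 61.7, 63.7, 62.4 and 60.8 CPM with the combination, 61.8, 68.2, 69.5 and 70.7 with irinotecan, 59.1, 61.6, 65 and 61.2 with simvastatin and 66.7, 74.4, 63.1 and 73.4 with DMSO. Simvastatin replicate 3 lay above DMSO replicate 3, and the log2 fold change was -0.17 ± 0.05 (edgeR adjusted p = 0.0392). FANCI libraries with simvastatin, 198 to 217 CPM, stayed just below those with DMSO, 218 to 236 CPM (-0.13 ± 0.04, edgeR adjusted p = 0.0223). None of these 3 calls held in every setting: without simvastatin replicate 2 or 4, or fitted on simvastatin and DMSO alone, no member was called, and without simvastatin replicate 3 there were 6. There was 1 call without DMSO replicate 2 or 4 or simvastatin replicate 1. The members' median was -0.06, against -0.01 for all genes, and 11 of 50 log2 fold changes were above 0, against 7914 of 16647 over all genes.

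In the main fit, adding simvastatin to irinotecan likewise raised no member and lowered 2, RAD51AP1 and SLX4. In the combination against irinotecan 4.45% of all genes were called higher and 1.5% lower. With a replicate block in the 12 numbered libraries ATM and TOPBP1 were called higher (edgeR adjusted p = 0.0112 and 0.0223). The counts with a replicate block are given in the closing section. RAD51AP1 (ENSG00000111247, chr12:4538798-4560048), which stimulates strand invasion, had 35.4, 34.6, 34.7 and 33.1 CPM with the combination and 39.4, 38.2, 40 and 38.2 CPM with irinotecan, and 35.4, 33.8, 33.5 and 32.6 CPM with simvastatin and 32.7, 35.4, 32.2 and 35.3 CPM with DMSO. The irinotecan libraries stood above those of the 3 other treatments, which overlapped each other. The log2 fold change was -0.18 ± 0.05 for the combination against irinotecan (edgeR adjusted p = 0.0228), 0.20 ± 0.05 for irinotecan against DMSO (edgeR adjusted p = 0.00221) and 0.03 ± 0.05 for the combination against simvastatin (edgeR adjusted p = 0.735). SLX4 (ENSG00000188827, chr16:3581181-3611598) had 20.6, 20.1, 21.1 and 21.4 CPM with the combination and 22.4, 23.4, 25.3 and 25 CPM with irinotecan, and 21.1, 23.6, 23.1 and 23.2 CPM with simvastatin and 21.3, 23.6, 25.1 and 21.8 CPM with DMSO. Combination and irinotecan libraries did not overlap (-0.21 ± 0.06, edgeR adjusted p = 0.0394), and both did overlap DMSO libraries. Leaving out single libraries gave between 0 and 3 calls. There were 0 without irinotecan replicate 3 or without combination replicate 2, 3 or 4, and 1 without irinotecan replicate 1, 2 or 4. Over all genes these fits gave 674 to 1113 calls, beside 989 in the main fit. The simvastatin comparisons, which share no library with each other, had no called member in common, and over the 50 members r was 0.24 and rho 0.23, with the same sign in 40 (80%). Over all genes the shared calls were 51.8% and 52.3% of the lists, r was 0.27, rho was 0.32 and the sign was the same in 63.7%.

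**Figure D5:**
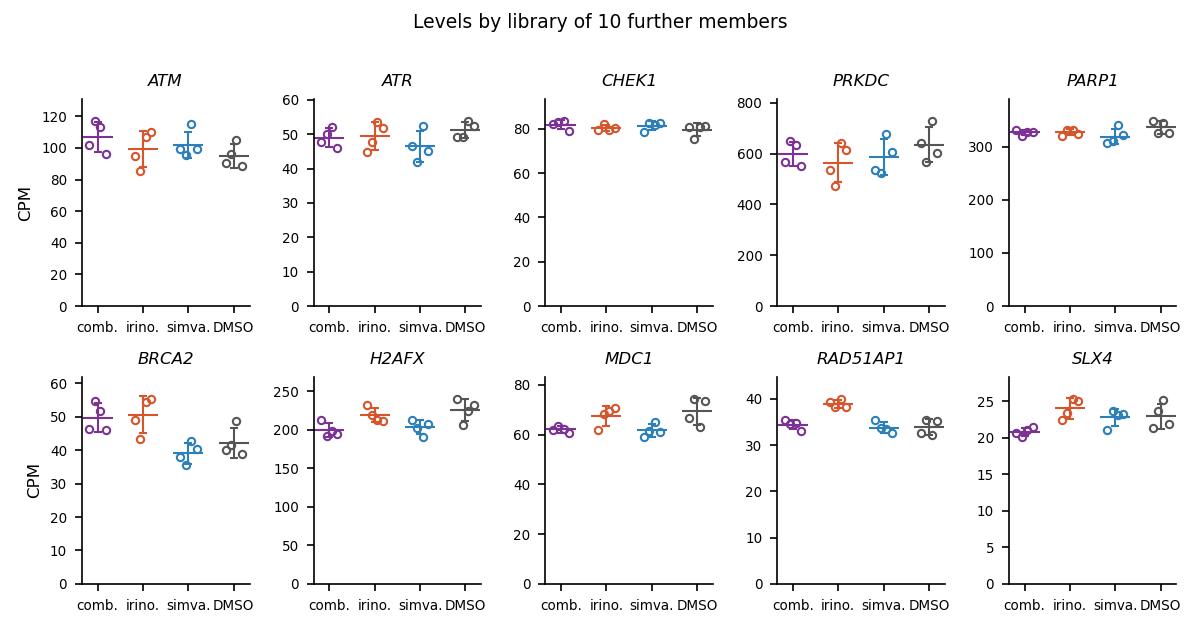
Level in CPM in each of the 16 libraries for the kinases ATM, ATR, CHEK1 and PRKDC, for PARP1 and BRCA2, and for H2AFX, MDC1, RAD51AP1 and SLX4. Circles are libraries and bars are the mean and SD (n = 4), with combination, irinotecan, simvastatin and DMSO from left to right and each axis starting at 0. The treatments overlap for the first 5 genes named, and RAD51AP1 is highest in the 4 irinotecan libraries.

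No member was called as departing from additive log2 effects of the drugs. The interaction, which is the log2 effect of the combination minus the log2 effects of both drugs alone, was called for 0 of 50 members by edgeR and for 0 by DESeq2, and for 2 of 16647 genes by edgeR (0.012%). At an unadjusted p under 0.05 there were 3 members, PALB2 at 0.16 ± 0.07, RAD51AP1 at -0.17 ± 0.07 and SLX4 at -0.20 ± 0.09, each with an edgeR adjusted p of 0.823. The standard error of the interaction was 0.05 to 0.21 over the members, with a median of 0.07. Departures larger than the standard error could also be missed, since these 3 estimates exceeded theirs and were not called. The genes that edgeR did call had a median absolute interaction of 1.46. The combination against DMSO, which uses the libraries of the preceding comparisons, gave 11 members higher and 7 lower, where 15.1% and 13% of all genes were called. With library totals alone as the scale, 15 were higher and 6 lower, against 23.2% and 8.42% of all genes. EXO1 (0.42 ± 0.04), FANCB (0.34 ± 0.09), CHEK2 (0.32 ± 0.08), POLQ (0.32 ± 0.05) and BLM (0.31 ± 0.04) were the highest, and LIG3 (-0.39 ± 0.06), MSH6 (-0.31 ± 0.04) and MUS81 (-0.28 ± 0.06) the lowest. Of these 18 calls 14 held in all 23 settings, and those of MDC1, RBBP8, BRCA1 and BRCA2 did not. BRCA2 (0.24 ± 0.09, edgeR adjusted p = 0.0493) was lost in 10 settings, with an adjusted p of up to 0.157 without DMSO replicate 4, and BRCA1 in 3, with up to 0.0555 without that library. MDC1 was lost in 4, with up to 0.131 with library totals alone, and RBBP8 in 4, with up to 0.113 without DMSO replicate 1.

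Over the 5 comparisons between treatments, 27 of the 50 members were called at least once and 23 never, where 41.1% of all genes were called at least once. Among those never called are ATM, ATR, CHEK1, TP53BP1, PALB2, PRKDC and PARP1. Of the members called higher with irinotecan against DMSO, 11 of 13 had no library in the range of the DMSO libraries, and of those called lower, 4 of 7. Over all genes, 1701 of the 2064 called higher and 1555 of the 1951 called lower were apart in this way. These are 10.2% and 9.34% of all genes tested. In the combination against simvastatin, 12 of 13 higher and 4 of 6 lower members were apart. Over all genes, 1893 of the 2306 called higher and 1616 of the 1953 called lower were apart, which are 11.4% and 9.71% of all genes tested.

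Further genes of the same pathways, 76 listed and 75 tested, also went both ways. In irinotecan against DMSO 16 were higher and 11 lower (median 0.00), beside 12.4% and 11.7% of all genes. In the combination against simvastatin 17 were higher and 6 lower (median 0.03), beside 13.9% and 11.7% of all genes. Other recombination genes had 5 higher and 1 lower of 15 against DMSO, among them the Holliday junction resolvase GEN1 (0.26 ± 0.06) and the MUS81 partner EME1 (0.35 ± 0.08). Of 10 further Fanconi genes none rose and 2 fell, FANCF (-0.38 ± 0.08) and FAAP100 (-0.21 ± 0.05). Of 12 other checkpoint genes 3 rose and 2 fell, with WEE1, the kinase that holds back mitotic entry, at -0.32 ± 0.04 and the phosphatase CDC25B at 0.23 ± 0.03. The uracil glycosylase UNG had the lowest log2 fold change of these genes, -0.55 ± 0.04 with irinotecan against DMSO and -0.61 ± 0.04 in the combination against simvastatin, and of 10 single-strand break and base excision genes 4 rose and 3 fell against DMSO. None of the 4 other end joining genes tested passed in either of these comparisons.

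Cell cycle genes were also called in these comparisons, in which 12.4% and 13.9% of all genes were called higher and 11.7% lower in each. Of 22 S phase and replication genes, 5 rose and 12 fell with irinotecan against DMSO (median -0.11), and 5 rose, 6 fell and 11 did not pass in the combination against simvastatin (median -0.05); the list includes UNG. The helicase gene MCM6 stood at 131 ± 1.2 CPM in irinotecan libraries and 184 ± 2.11 CPM in DMSO libraries (SD, n = 4 each). Of 20 G2 and mitosis genes, 6 rose and 3 fell in either comparison, with CDK1 at 0.37 ± 0.03 and CENPE at -0.40 ± 0.05 for irinotecan against DMSO. The summed level of the S phase list was 3152 to 3283 CPM in irinotecan libraries and 3316 to 3492 CPM in DMSO libraries, and that of the 51 members was 4825 to 5056 and 4910 to 5155 CPM. Many recombination and Fanconi genes are cell cycle regulated, and the part of a shift in cell cycle phases in the members' changes was not tested.

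Gene span was set beside the change, since topoisomerase I poisons are known to affect transcription along long genes. Over the 50 members Spearman's rho between span and log2 fold change was 0.04 for irinotecan against DMSO and 0.20 for the combination against simvastatin, beside 0.00 and 0.15 over 16609 genes. Of the 12 members that span over 100 kb, 4 rose and 1 fell with irinotecan against DMSO, and of the 38 shorter ones 9 rose and 6 fell. In the combination against simvastatin, 4 of the 12 rose and 2 fell, and 9 of the 38 rose and 4 fell. The shares called among all genes over and under 100 kb were not computed, so these counts are not read as an effect of span. Members of long transcripts also varied together within treatments. The rank correlation, over 16609 genes, of summed exon length with a library's deviation from its treatment mean was -0.21 and -0.20 in irinotecan replicates 1 and 2, 0.16 and 0.23 in irinotecan replicates 3 and 4, and 0.29 in simvastatin replicate 3. PRKDC deviated by -0.06, -0.25, 0.19 and 0.13 on the log2 scale in irinotecan replicates 1 to 4 and by 0.22 in simvastatin replicate 3, and ATM by -0.06, -0.21, 0.12, 0.15 and 0.17. The part of this length-related spread in the results for long members was not tested.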

How the data were processed

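Poly(A) RNA of 16 U-251 MG libraries was sequenced as read pairs, 4 libraries per treatment. The deposited table holds raw counts per gene, which the authors had not normalised. Per the submitters' processing notes, FastQC, STAR 2.7.1, DESeq2 and the genome build GRCh38 were used; which program counted reads, whether strand was used and which annotation release applied is not given in the sources used here. Gene positions and exon lengths came from GENCODE 29, which held 57980 of 58243 IDs. In each treatment 1 title has no replicate number and is called replicate 4.

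Tests used edgeR 4.0.16 under R 4.3.3 (filterByExpr at count 10 and total 15, TMM, robust glmQLFit on all 16 libraries with 1 term per treatment, two-sided glmQLFTest). Benjamini-Hochberg adjustment ran over the 16647 genes kept, and a gene was called at an adjusted p under 0.05. The standard error is the absolute log2 fold change divided by the root of the F statistic. Genes varied between libraries of a treatment by 5.25% (common biological coefficient of variation). The fit was also run on counts simulated with the spread of these data, and the outcome is not given here. Libraries of a treatment were checked for duplicates by chi-squared per degree of freedom, 2.59 to 15.4, so none was counted as a copy. Alternatives were DESeq2 1.42.0, other scalings, no filter, fits of the compared treatments alone, a replicate block, each library left out, and an adjusted p under 0.01. Members, lists and tests were chosen with earlier results of these data known, and lists are described by counts without a test of their own. Values in every library are given for the members called in both irinotecan comparisons (the 12 with the smallest p), those called for simvastatin, and 10 genes named in any case. Figures used Python 3.11.15 and matplotlib 3.10.9.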

Additional observations from a re-analysis of the deposited data

Results flagged for a closer look

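Of 200 sets of 4 libraries (50 members in 4 treatments), 10 held a library that stood apart from the other 3 by Dixon's criterion, and chance gives about 1 in 20 such sets. Simvastatin replicate 3 accounts for 4 of them: BLM at 53 CPM (others 50.1 to 50.4), FANCI at 217 CPM (others 198 to 200) and MSH6 at 173 CPM (others 157 to 159) were high there, and FANCG at 64.7 CPM (others 69 to 69.8) was low. This is also the library with the strongest relation of deviation to exon length.

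CHEK1 was low in DMSO replicate 2, at 75.2 CPM against 80.9 to 81.1 in the others. MSH6 was low in irinotecan replicate 2, at 135 CPM against 144 to 146. PALB2 was high in irinotecan replicate 4, at 28.7 CPM against 27.2 to 27.4, and so was ERCC4, at 21.5 CPM against 18.7 to 18.9. In combination replicate 1, RAD51C was high at 44.5 CPM (others 41.4 to 41.6) and XRCC2 was low at 45.3 CPM (others 46.8 to 47). The causes were not tested.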

How the results depend on the processing

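Of the 20 members called in irinotecan against DMSO, 12 were called in all 23 settings, as were 15 of 19 in the combination against simvastatin and 14 of 18 in the combination against DMSO; none of the 3 and 2 called members of the simvastatin comparisons were. No called member changed sign in any of them. Leaving out 1 library in turn gave 16 to 21, 17 to 20 and 15 to 19 calls in the first 3 comparisons, 0 to 6 for simvastatin against DMSO, 0 to 3 for the combination against irinotecan and 0 for the interaction. Over all genes the same fits gave 3393 to 4188, 3479 to 4371 and 3998 to 4828 calls in the first 3 comparisons. They gave 664 to 1224 for simvastatin against DMSO, 674 to 1113 for the combination against irinotecan and 0 to 9 for the interaction. At an adjusted p under 0.01 irinotecan against DMSO kept 12 calls and both simvastatin comparisons 0. Fitted on the compared treatments alone, simvastatin against DMSO gave 0 calls and the combination against irinotecan 6, and without a filter on low counts the combination against irinotecan gave 5. Correlations of change with summed exon length in place of gene span were -0.14 (irinotecan against DMSO), -0.02 (combination against simvastatin), -0.17 (simvastatin against DMSO), 0.16 (combination against irinotecan) and -0.05 (combination against DMSO). E2F words were in 6 members upstream of the start alone. A stricter threshold leaves fewer calls by construction, and the cause of the other differences was not tested.

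The main tests did not pair libraries by replicate number, although 10 of 12 numbered libraries were closest to one of their own number. Correlations of deviations between same-numbered libraries were -0.089 to 0.218 over 18 pairs. Between numbered libraries of different treatments and different numbers they ran from -0.266 to 0.119. Whether the numbers pair the libraries was not tested, and the main tests take no account of such pairing. With the replicate number as a block, member calls were 23 for irinotecan against DMSO, 22 for the combination against simvastatin, 4 for simvastatin against DMSO, 6 for the combination against irinotecan, 19 for the combination against DMSO and 0 for the interaction. Over all 16647 genes the block gave 4660 calls for irinotecan against DMSO and 5031 for the combination against simvastatin. It gave 1462 for simvastatin against DMSO and 5346 for the combination against DMSO. Each of these totals was larger than in the main fit, so the block raised calls beyond the members too. The 6 members called for the combination against irinotecan were all lower. With a block in the 12 numbered libraries that comparison gave 8, of which 6 were lower and 2 higher, ATM (edgeR adjusted p = 0.0112) and TOPBP1 (edgeR adjusted p = 0.0223). Over all genes it gave 989 calls without a block, 1586 with it and 2016 with it in the 12 numbered libraries. The interaction was called for 2, 6 and 190 of all genes in these fits.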
